A study of Mus musculus with 4 samples.

Results

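The 10 genes described here encode the cytosolic and mitochondrial heat shock proteins and their closest partners: Hspa1a, Hspa1b, Hspa8, Hsp90aa1, Hsp90ab1, Hspd1, Hspe1, Dnajb1, Hsph1 and Hspb1. They were taken from 25107 genes named on the array, as every probe that the array's annotation assigns to one of these symbols or that was designed to its transcript. All 10 were found, at 20 probes, and all 20 probes were well above background on all 4 arrays. Probes were assigned to the genes by name and transcript alone.

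RNA came from macrophages grown from the femoral bone marrow of male C57BL/6J mice, either wild type or Batf2-/-. Batf2 encodes a basic leucine zipper transcription factor. Both genotypes were grown in 10% FBS with 3 ng/ml M-CSF, the growth factor that drives marrow cells towards macrophages, and were harvested on day 5. One culture of each genotype received 100 ng/ml R848, a small imidazoquinoline that activates Toll-like receptor 7 in mouse cells, for 8 h, and the other was left untreated. Each of the 4 groups is thus 1 culture on 1 Cy3 array, so no test between groups exists and every difference below compares single arrays. The untreated cultures are labelled 0 h, and no untreated culture is labelled 8 h. R848 and the time between the arrays therefore cannot be told apart. The labels do not give the number of mice or how the Batf2 allele was made.

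Heat shock proteins are chaperones: they hold unfolded proteins, fold them with the use of ATP, or pass them on for degradation. HSP70 proteins bind short hydrophobic stretches, J-domain proteins such as DNAJB1 bring them clients and stimulate their ATPase, and HSP110 proteins exchange the nucleotide. HSP90 proteins mature kinases and receptors, and the HSP60 chaperonin with its HSP10 lid folds proteins in the mitochondrial matrix. Many of these genes are targets of the transcription factor HSF1, which binds heat shock elements, inverted repeats of the letters GAA. In macrophages, cytosolic chaperones are known partners of receptor and kinase signalling after microbial stimuli.

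Responses are differences of log2 signal after each array's 75th percentile was subtracted, R848 minus untreated. A gene with several probes is represented by its brightest probe. The words rose and fell are used only for differences of at least 2-fold. The errors given are those of the scanner software for single spots, carried to the log2 scale. They were about 0.20 for a difference between 2 arrays and 0.29 for a difference between responses. For 289 probes printed in 10 copies, the wild-type response had a median SD of 0.06 between copies. Neither error covers the spread between cultures or mice.

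The 4 arrays were alike in brightness, with 75th percentile signals from 252 to 278, and 60.6% to 71.4% of probes were well above background. Il6, a cytokine induced by Toll-like receptors, had signals of 17.4 and 2641 in wild type without and with R848 and 3.34 and 2894 in the knockout, where the untreated value was not well above background. The interferon-induced gene Ifit1 was 16.7-fold higher with R848 in wild type and 75.8-fold higher in the knockout. Batf2 itself gave signals of 34.1 and 94.8 in wild type and 26.7 and 10.8 in the knockout, the last not well above background. With R848 it was at least 6.20-fold lower in the knockout, the bound being set against the dimmest signal well above background. The Batf2 probe did not separate the untreated arrays, and where it lies relative to the deleted part is not given. All 8 macrophage markers (such as Adgre1, Csf1r and Cd68) were well above background on every array.

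All 10 heat shock and chaperone genes had more signal with R848 than without in both genotypes. The share over the genes measured was 49.4% in wild type and 45.4% in the knockout. In wild type, 3 of 10 rose at least 2-fold (Hspa1b, Hsp90aa1 and Hspd1), against 5.94% of 19552 genes measured, and in the knockout 2 of 10 did (Hspa1b and Hsp90aa1), against 6.73% of 20156. None of the 10 fell, against 6.73% of the genes measured in wild type and 6.47% in the knockout. Counted at 1.5-fold higher, the members numbered 7 and 6, against 12.6% and 13.3% of the genes measured. The median response of the 10 genes was 0.63 in wild type, with a range from 0.27 to 1.45, and 0.73 in the knockout, with a range from 0.36 to 1.52. The median over all genes measured was -0.01 and -0.05. The 10 genes were chosen with earlier results of these data known, so the shares beside their counts are description only. Markers of granulocytes and their precursors, basophils and mast cells also differed between untreated and treated arrays, as given with the genotype comparison. Their part in these responses was not tested.

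**Figure D1:**
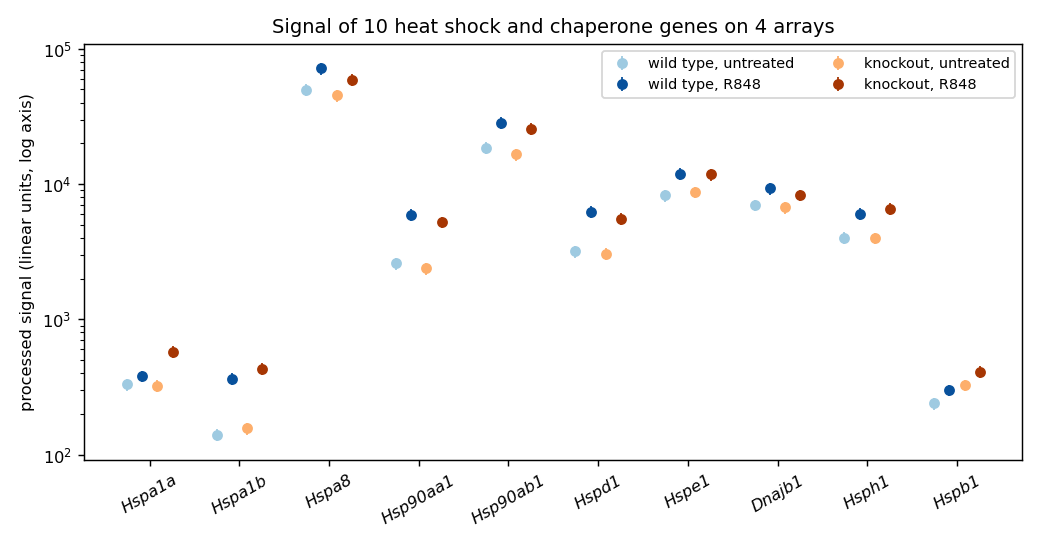
Processed signal (linear units on a log axis) of each of the 10 genes at its brightest probe on the 4 arrays, with the scanner software's error for that spot as the bar. In each genotype the R848 point lies above the untreated point for all 10 genes, and levels of different genes are not comparable because each is read by its own probe.

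Hspa1a and Hspa1b encode the stress-inducible HSP70 proteins. Both lie on chromosome 17 as near-identical copies, with no gene listed between them in the RefSeq annotation. Each is read by 1 probe here, A_52_P82741 for Hspa1a and A_66_P118021 for Hspa1b. The probe sequences were not used here, so whether either probe also reads the other copy's transcript was not tested. The 250 bases before the start of each gene are shown because the genes have nearly the same promoter and different R848 values. The sequences are from RefSeq on build GRCm38.p6, minus strand, at chr17:34972157-34972406 and chr17:34959239-34959488. Capitals mark a match to the heat shock element GAANNTTC.
Hspa1a: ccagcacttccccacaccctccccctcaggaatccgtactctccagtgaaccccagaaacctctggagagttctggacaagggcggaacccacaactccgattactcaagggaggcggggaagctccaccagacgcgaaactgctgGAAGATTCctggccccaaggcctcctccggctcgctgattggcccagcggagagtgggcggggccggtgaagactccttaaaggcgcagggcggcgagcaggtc
Hspa1b: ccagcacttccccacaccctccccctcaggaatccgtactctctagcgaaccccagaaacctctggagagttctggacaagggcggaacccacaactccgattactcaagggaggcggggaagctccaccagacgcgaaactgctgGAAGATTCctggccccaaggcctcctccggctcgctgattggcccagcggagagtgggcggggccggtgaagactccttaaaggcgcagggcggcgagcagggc
The windows were identical at 247 of 250 bases (98.8%). The differences were C44T, T47C and T249G, with the Hspa1a base first and positions counted from 1 at the 5′ end. Both hold the match GAAGATTC, 104 to 97 bases before the start, and an ATTGG match, the CCAAT box on the other strand, 67 to 63 bases before it.

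The Hspa1b probe gave a signal of 140 in untreated wild type, 365 in wild type with R848, 156 in the untreated knockout and 432 in the knockout with R848. Hspa1b had the largest response of the 10 genes in both genotypes, and both treated arrays lay above both untreated ones. The response was 1.45 ± 0.21 in wild type, a 2.73-fold rise, and 1.52 ± 0.21 in the knockout, a 2.87-fold rise. The difference between the responses was 0.08 ± 0.29, within the scanner error.

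The Hspa1a probe gave 331, 380, 322 and 576 in the same order. Only the knockout array with R848 stood apart, while the untreated arrays were alike. The response was 0.27 ± 0.21 in wild type, the smallest of the 10, and 0.89 ± 0.20 in the knockout (1.86-fold). With R848 the knockout was 1.60-fold above wild type, at 0.67 ± 0.20. The difference between the responses was 0.63 ± 0.29, the largest of the 10 at their representative probes and 2.17 times its scanner error. None of these Hspa1a differences reached 2-fold, except the knockout response with each array centred on its median (1.04), and with 1 array per group the difference between genotypes was not tested. In the authors' deposited table the same probe has log2 ratios of 0.25 in wild type, 0.86 in the knockout and 0.70 for knockout over wild type with R848. The spots around this probe deviated from their medians over the 4 arrays by -0.01, -0.06, 0.21 and -0.11 (log2), in the order of the signals. The 0.21, in the untreated knockout, was the largest at any probe of the 10 genes. The values were not corrected for these deviations, and their part in the Hspa1a differences was not tested.

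Hspa8 encodes HSC70, the constitutive HSP70 of the cytosol, and lies on chromosome 9. Its brightest probe gave 49694 in untreated wild type, 71486 in wild type with R848, 45169 in the untreated knockout and 59079 in the knockout with R848. The treated arrays were above the untreated ones in both genotypes, by 0.59 ± 0.20 in wild type and 0.44 ± 0.20 in the knockout. Its 4 probes gave responses from 0.51 to 0.71 in wild type and from 0.33 to 0.61 in the knockout. All 4 were below 2-fold and in the same direction. With R848 the 4 probes put the knockout below wild type, by -0.20 to -0.11, which does not exceed the scanner error of 0.20 for a difference between 2 arrays.

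Hsph1 encodes HSP110, a nucleotide exchange factor for HSP70, and lies on chromosome 5. Its brightest probe gave 3999, 6039, 3971 and 6530 for untreated and R848-treated wild type and untreated and R848-treated knockout. The untreated arrays were alike, and both treated arrays were higher. The responses were 0.66 ± 0.20 and 0.77 ± 0.20. Over its 3 probes they ran from 0.61 to 0.78 in wild type and from 0.51 to 0.77 in the knockout. Dnajb1 encodes an HSP40 co-chaperone whose J domain activates HSP70, and lies on chromosome 8. Its single probe gave 6964, 9283, 6713 and 8266, with smaller gaps between treated and untreated arrays than Hsph1. The responses were 0.48 ± 0.20 and 0.36 ± 0.20, and the knockout value was under 2 times its scanner error.

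Hsp90aa1 encodes the inducible HSP90 of the cytosol, and lies on chromosome 12. Its brightest probe gave 2588 in untreated wild type, 5919 in wild type with R848, 2381 in the untreated knockout and 5232 in the knockout with R848. Both treated arrays lay well above both untreated arrays, and the genotypes were alike. The gene rose 2.40-fold in wild type (1.26 ± 0.20; 0.73 as the mean over its 3 probes) and 2.28-fold in the knockout (1.19 ± 0.20). The second probe designed to the same transcript gave 400, 1012, 350 and 766. Its responses, 1.41 and 1.19, were also above 2-fold.

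The third probe assigned to Hsp90aa1, A_55_P2352652, went against the other probes. It was designed to an expressed sequence tag rather than to the gene's RefSeq transcript, and it was the dimmest of the 3, with signals of 45.6, 31.2, 40.7 and 141. The knockout array with R848 alone was high. The response was -0.48 ± 0.31 in wild type and 1.84 ± 0.23 in the knockout. Where on the gene this probe lies was not tested, and the values of Hsp90aa1 used here come from the brightest probe. Hsp90ab1, on chromosome 17, encodes the constitutive cytosolic HSP90. Its probe gave 18568, 28292, 16548 and 25594. The responses of 0.68 ± 0.20 and 0.69 ± 0.20 (1.60-fold and 1.61-fold) were almost the same in both genotypes and below 2-fold.

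**Figure D2:**
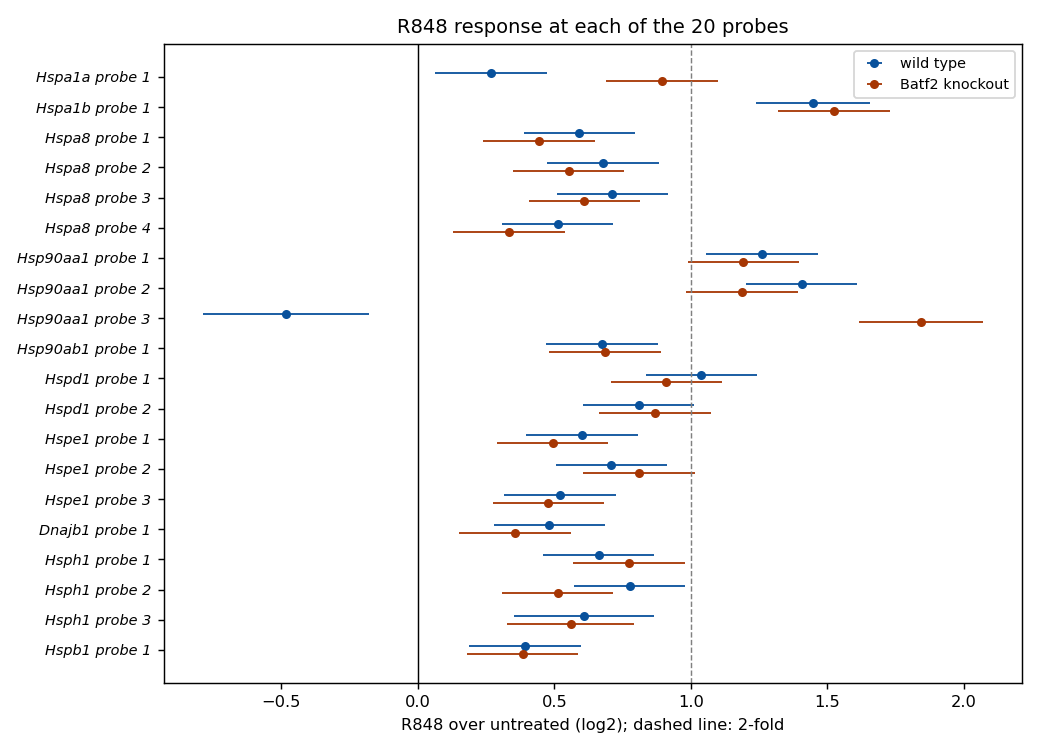
R848 response (log2, R848 minus untreated) of each of the 20 probes in wild type (blue) and Batf2 knockout (red), with the scanner software's error as the bar and 2-fold as the dashed line. The 20 knockout values and 19 of the 20 wild-type values lie above 0, the exception being the third Hsp90aa1 probe at -0.48.

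Hspd1 and Hspe1 encode HSP60 and HSP10, which form the folding chamber of mitochondria. They lie on chromosome 1, head to head, and share a promoter region. A 30-base stretch before the Hspe1 start is shown because it holds the longest run of heat shock element letters among the promoters of the 7 genes that have a RefSeq window here. It lies on the plus strand of GRCm38.p6 at chr1:55088053-55088082, 95 to 66 bases before the start, with the run in capitals.
Hspe1: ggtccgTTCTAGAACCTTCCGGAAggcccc
The same run, read on the other strand, lies in 1 of the RefSeq windows of Hspd1, which overlaps the Hspe1 window by 215 bases. The brightest Hspd1 probe gave 3182 in untreated wild type, 6236 in wild type with R848, 3062 in the untreated knockout and 5534 in the knockout with R848. Both treated arrays were higher than both untreated ones. The gene rose 2.05-fold in wild type (1.04 ± 0.20), just past 2-fold, and its response was 0.92 with quantile normalization or the mean over its probes and 0.96 with normexp background correction, short of it. In the knockout the difference was 1.88-fold (0.91 ± 0.20), also close to 2-fold, and 1.05 on the log2 scale with median centring. The difference between the responses was -0.13 ± 0.29, within the scanner error. The second probe gave 0.81 and 0.87, below 2-fold in both genotypes.

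Hspe1 gave signals of 8229, 11910, 8712 and 11797 at its brightest probe. The untreated arrays and the treated arrays formed separate pairs, with the treated pair higher. The responses were 0.60 ± 0.20 and 0.49 ± 0.20, and over its 3 probes 0.52 to 0.71 in wild type and 0.48 to 0.81 in the knockout. Thus the HSP10 gene differed in the same direction as the HSP60 gene, by less at the brightest probe. Whether the 2 genes differ from each other was not tested.

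Hspb1 encodes HSP27, a small heat shock protein that binds unfolding proteins without ATP. It lies on chromosome 5. Its 250 bases before the start (GRCm38.p6, plus strand, chr5:135887669-135887918) are shown because this is the member with the largest genotype difference without R848, and because its window has a pair of separate GAANNTTC matches, in capitals.
Hspb1: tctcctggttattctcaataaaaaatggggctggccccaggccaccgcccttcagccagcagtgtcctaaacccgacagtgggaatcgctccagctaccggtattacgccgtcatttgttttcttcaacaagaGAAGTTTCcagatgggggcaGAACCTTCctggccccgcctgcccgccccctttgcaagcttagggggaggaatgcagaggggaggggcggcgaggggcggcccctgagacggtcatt
The matches lie 117 to 110 and 97 to 90 bases before the start. The Hspb1 probe gave 239 in untreated wild type, 299 in wild type with R848, 325 in the untreated knockout and 408 in the knockout with R848. Both knockout arrays lay above both wild-type arrays. The R848 responses were 0.39 ± 0.21 and 0.38 ± 0.20, each under 2 times the scanner error and almost equal. The knockout exceeded wild type by 0.53 ± 0.21 untreated and by 0.52 ± 0.21 with R848, about 1.44-fold in both states. These values did not reach 2-fold or 1.5-fold. The spots around this probe deviated by -0.15 in untreated wild type and 0.08 in the untreated knockout (log2). With R848 the deviations were -0.02 and 0.04. The values were not corrected for them, and their part in the genotype difference was not tested.

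Between genotypes, none of the 10 genes differed by 2-fold either without or with R848. Without R848, 2.8% of the 20301 genes measured passed 2-fold upwards in the knockout and 3.18% downwards. With R848 the shares were 2.32% and 2.42% of 18989. At 1.5-fold higher in the knockout stood none of the 10 without R848, against 9.63%, and 1 with R848 (Hspa1a), against 8.58%. The median difference of the 10 genes, knockout minus wild type, was 0.04 without R848, with 7 genes above 0 and 3 below. It was -0.01 with R848, with 5 above and 5 below. Over all genes measured the medians were 0.06 and 0.03, with 56.8% and 54.3% of genes above 0. Among the 10, only Hspb1 exceeded 2 times the scanner error in the untreated cultures, and only Hspa1a and Hspb1 did with R848. The share of all genes past that cut was not counted, so nothing about the 10 genes is read from it. The difference between responses had a median of -0.04, against -0.03 over all genes, and a range from -0.15 to 0.63. None reached 2-fold, against 3.62% of genes above and 4.18% below, and 1 was at least 1.5-fold above (Hspa1a), against 9.9%. The comparisons share arrays, so these values are not independent of the responses.

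**Figure D3:**
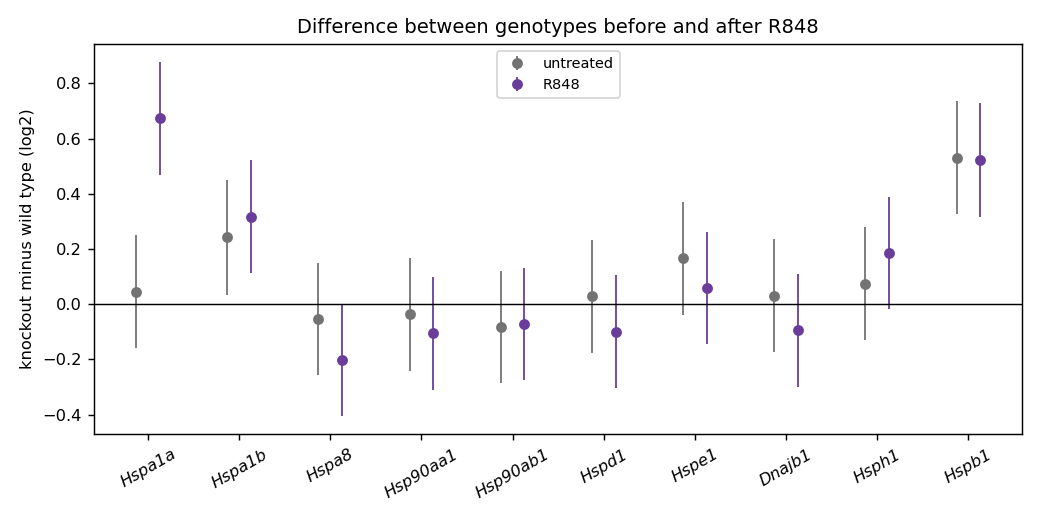
Knockout minus wild type (log2) for each of the 10 genes without R848 (grey) and with R848 (purple), with the scanner software's error as the bar. Hspa1a is at 0.05 without and 0.67 with R848, Hspb1 is at 0.53 and 0.52, and the other 8 genes lie between -0.20 and 0.32.

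Markers of other marrow cells moved with genotype and with R848. The summed signal of 8 basophil and mast cell markers was 6327 and 3549 in wild type without and with R848 and 613 and 652 in the knockout, and 8, 8, 7 and 4 of the 8 were well above background. The 8 markers of granulocytes and their precursors summed to 61997 and 33894 in wild type and 24473 and 18613 in the knockout. All 8 were above background on every array. In the untreated knockout 5 of them were at least 2-fold lower, namely Mpo, Elane, Ctsg, Prtn3 and Ms4a3, from -4.02 to -2.05. Ltf, Camp and Ngp differed less, by -0.16, -0.39 and -0.89. With R848, 6 of the 8 granulocyte and precursor markers fell at least 2-fold in wild type and 4 in the knockout, and none rose. Over all genes measured, 6.73% fell in wild type and 6.47% in the knockout. The median R848 response of the basophil and mast cell markers was -1.01 in wild type and -0.75 in the knockout, over 8 and 7 markers measured. Of these, 4 fell at least 2-fold in wild type and 3 in the knockout, and 1 rose in each, Hdc. Its signal was 436 and 882 in wild type without and with R848 and 198 and 460 in the knockout. Hdc thus made up most of the sum of 652 in the knockout with R848. The 4 fibroblast markers summed to 4079 and 2308 in wild type and 3902 and 2424 in the knockout. In these bulk samples, fewer cells of a type and less RNA per cell cannot be told apart. The part of these cells in the R848 responses of the 10 genes and in the Hspa1a and Hspb1 differences was not tested.

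The letters of heat shock elements were counted in RefSeq promoters, using the 250 bases before the start on both strands. A window was found for 7 of the 10 genes, in 10 windows. Hspa8, Hsp90aa1 and Hsp90ab1 had no entry. A gene was counted if any of its windows had a match, whereas the shares given for comparison are over single windows. The letters GAANNTTC or TTCNNGAA, which form a pair of units, were present in 6 of these 7 genes (Hspa1a, Hspa1b, Hspd1, Hspe1, Hsph1 and Hspb1), and in 12.8% of 32851 windows. These are not 6 separate sites, since Hspa1a and Hspa1b are near-identical copies and Hspd1 and Hspe1 share their matches. GAANNTTC alone was in 6.69% and TTCNNGAA alone in 7.17%. A run of 3 units, in the order TTC, GAA, TTC or GAA, TTC, GAA with any 2 bases between units, contains the shorter letters. It was present in 2 (Hspd1 and Hspe1, which share it), and in 0.466% of windows. The CCAAT or ATTGG letters were in 4 of the 7 and in 33.8% of windows. TGANTCA, the AP-1 site, was in none of the 7 and in 6.75% of windows, and GAAA followed after any 2 bases by GAAA, the core of interferon-stimulated response elements, was in none and in 2.98%. Dnajb1 had no match to the heat shock element letters in its windows. The second Dnajb1 window lies downstream of the start that the first window precedes. Longer stretches and partial matches were not searched.

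The Hsph1 match is shown as a 30-base stretch, 44 to 15 bases before 1 of its annotated starts, because it lies closest to the start among the heat shock element matches of these genes. It is on the minus strand of GRCm38.p6 at chr5:149636351-149636380, with the match in capitals.
Hsph1: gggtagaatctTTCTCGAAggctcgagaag
The wild-type responses of the 6 genes with these letters were 0.27 (Hspa1a), 0.39 (Hspb1), 0.60 (Hspe1), 0.66 (Hsph1), 1.04 (Hspd1) and 1.45 (Hspa1b), and that of Dnajb1, the only gene without them, was 0.48. With 1 gene lacking a match, no relation between the letters and the response can be read. A match describes letters only and does not show that a factor binds there.

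**Figure D4:**
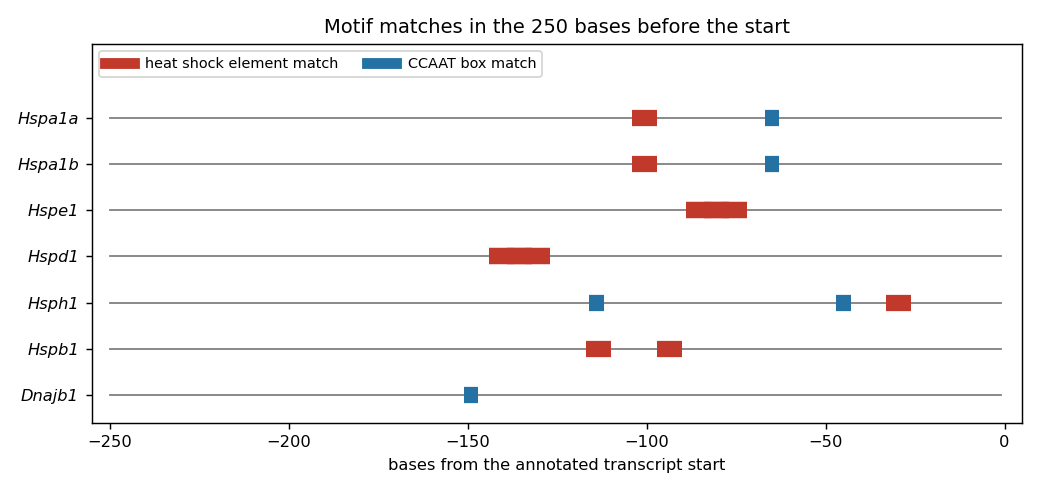
Positions of heat shock element matches (red) and CCAAT box matches (blue) in the 250 bases before an annotated start, for the 7 genes with a RefSeq window, 1 window per gene. Heat shock element matches lie between 144 and 26 bases before the start in 6 of the 7 genes, and Dnajb1 has a CCAAT box match only.

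Other chaperone genes are given by list. For comparison with the counts of every list, 5.94% of all genes measured rose and 6.73% fell in wild type. In the knockout 6.73% rose and 6.47% fell. Of 22 HSP90 and HSP70 co-chaperones, 1 rose at least 2-fold in wild type and none fell, and in the knockout 1 rose and 1 fell. The one that fell was Bag4, at -1.27, a bound set by the dimmest signal counted as above background on that array. The list medians were 0.12 and 0.26. Cacybp was the one that rose, at 1.08 and 1.18. Ahsa1, an activator of the HSP90 ATPase, had 0.97 and 0.66, and Stip1, the adaptor between HSP70 and HSP90, had 0.78 and 0.89. The lowest measured above background were Bag2, with -0.40 and -0.21, Sugt1, with -0.29 and -0.28, Unc45a, with -0.04 and -0.35, and Tomm34, with 0.30 and -0.34. The other Bag2 probe gave 0.43 and 0.39. Bag3, an HSP70 nucleotide exchange factor and a target of HSF1, had signals of 3758, 3299, 4770 and 4361 and responses of -0.12 and -0.07.

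The chaperonin CCT, which folds actin and tubulin, and its partner prefoldin had 14 genes measured with medians of 0.40 and 0.37. None passed 2-fold, and 3 in wild type and 4 in the knockout were at least 1.5-fold higher, against 12.6% and 13.3% of all genes. Cct6a had 0.93 and 0.82, and Cct3 had 0.92 and 0.90. The lowest were Vbp1, Pfdn5 and Pfdn1 of prefoldin, from -0.30 to -0.09 in wild type and from -0.20 to -0.11 in the knockout. The 11 mitochondrial chaperones and proteases other than Hspd1 and Hspe1 had medians of 0.24 in both genotypes, and none passed 2-fold. Grpel2, an exchange factor for mitochondrial HSP70, had 0.72 and 0.31, and the protease subunit Clpp had 0.69 and 0.47. The protease Htra2 had 0.26 and 0.39, Clpb had 0.21 and -0.27, and Clpx, the unfoldase partner of Clpp, had -0.25 and -0.46. The 3 Clpb probes ranged from -0.40 to 0.21 in wild type and from -0.27 to 0.40 in the knockout.

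The other HSP70 and HSP110 genes had 10 of 11 measured, with medians of 0.14 and -0.13. In wild type none passed 2-fold, and in the knockout 1 rose, Hspa13, at 1.13 (0.36 in wild type). Its only probe had low signals, 42.4 and 51.8 in wild type without and with R848 and 34.5 and 72.7 in the knockout. Hspa4, an HSP110 relative of Hsph1, had 0.49 and 0.41 at the brightest of 4 probes, which ranged from -0.13 to 1.08 in wild type. Hspa2 had -0.92 and -0.80, and Hspa14, with 4 probes, had -0.40 and -0.30 at its brightest. The Hspa14 probes ranged up to 0.96 in wild type and 0.58 in the knockout. The 2 HSP90 genes of the other compartments, Hsp90b1 of the endoplasmic reticulum and Trap1 of mitochondria, had 0.09 and -0.22 in wild type and 0.05 and 0.11 in the knockout. Of 36 J-domain proteins measured in wild type, 2 rose and 3 fell, against 5.94% and 6.73% of all genes measured. Of 35 in the knockout, 3 rose and 3 fell, against 6.73% and 6.47%. The list medians were 0.10 and 0.16. Those that rose were Dnajc2 (1.05) and Dnajc10 (1.04) in wild type, and Dnajc10 (1.57), Dnajb4 (1.26) and Dnajb3 (1.32, dim without R848) in the knockout. Those that fell were Dnajc9, Dnajb13 and Dnajc28 in both. The 4 probes of Dnajc10, a disulfide reductase of the endoplasmic reticulum, ranged from -0.09 to 1.04 in wild type. The 4 probes of Dnajb4 ranged from 0.30 to 1.26 in the knockout. Dnaja1, a cytosolic HSP70 partner, had 0.86 and 0.67 at the brightest of 3 probes. The lowest Dnaja1 values were -0.19 in wild type and -0.08 in the knockout. Dnajc9, a histone chaperone of dividing cells, fell by 1.44 and 1.52 on the log2 scale. Dnajb13 had -1.41 and -1.28 (dim with R848 in the knockout), and Dnajc28 had -1.37 and -1.35.

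Of the small heat shock proteins other than Hspb1, 6 were measured in wild type and 7 in the knockout, with medians of -0.11 and -0.05. None rose and 1 fell in each, Hspb6 in wild type at -1.38 (-0.04 at its other probe) and Cryaa in the knockout at -1.21. Hspb7 had 0.60 and 0.45, and its other probe -0.40 and -0.55. The 15 chaperones of the endoplasmic reticulum had medians of 0.09 and -0.13. None passed 2-fold in wild type, and 1 fell in the knockout, Pdia4, a disulfide isomerase, at -1.15 (-0.49 in wild type). Hyou1, the HSP110 protein of this compartment, had 0.63 and -0.13 at the brightest of 4 probes, which ranged from -0.39 to 1.32 in the knockout. Dnajb9 had -0.57 and -0.47, Dnajc3 -0.52 and -0.17, P4hb -0.31 and -0.55, Pdia6 0.39 and 0.32, and Dnajb11 0.24 and 0.26.

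**Figure D5:**
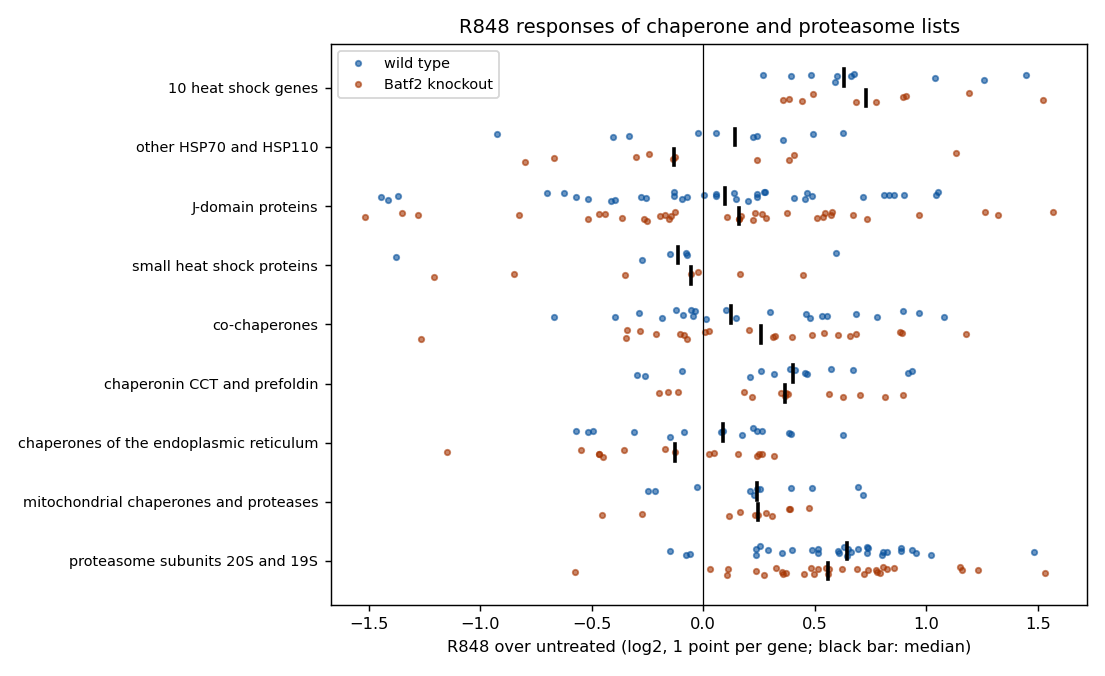
R848 response (log2) of each measured gene in the 10 heat shock genes, 7 other chaperone lists and the proteasome list, in wild type (blue) and knockout (red), with 1 point per gene and the list median as a black bar. The medians of the 10 genes (0.63 and 0.73) and of the proteasome subunits (0.65 and 0.56) lie furthest above 0 among the lists drawn, and several genes belong to more than 1 list.

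Of the genes for the heat shock factors Hsf1, Hsf2 and Hsf4 and the inhibitor of HSF1, Hsbp1, none of the 4 passed 2-fold in either genotype, and the medians were 0.10 and 0.17. Hsf1 gave 247 and 325 in wild type and 216 and 288 in the knockout, a response of 0.47 in both. Hsf2 had 0.63 and 0.77, Hsf4 had -0.26 and -0.14, and Hsbp1 had -0.41 and -0.20. Of 16 other HSF1 targets measured in wild type, 1 rose (Cacybp) and 1 fell (Dedd2), and of 17 in the knockout, 2 rose (Cacybp and Dnajb4) and none fell. The medians were 0.09 and 0.27. Dedd2, a death effector domain gene, had -1.13 and -0.84 at its brighter probe and 0.11 and 0.55 at the other. Hspa1l, an HSP70 gene next to the Hspa1 pair known mainly from testis, had 0.06 and -0.67, and Cryab had -0.15 and 0.16. The 10 immediate early genes, which respond to handling and stress of cells within minutes, had medians of -0.06 and -0.20. In wild type 1 fell, Fosb, at -1.11, with -0.19 in the knockout, and in the knockout 1 fell, Egr1, at -1.37, with -0.20 in wild type. Fos had -0.37 and -0.60, Ier2 had 0.41 and -0.28, Atf3 had 0.01 and 0.31, and Egr2 had 0.23 and 0.38.

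Proteasome subunits, which degrade proteins that chaperones release, were measured at 31 of 31. Their medians were 0.65 in wild type and 0.56 in the knockout, and 28 and 30 of them were above 0. At 2-fold, 2 rose in wild type and 4 in the knockout, against 5.94% and 6.73% of all genes measured. None fell, against 6.73% and 6.47%. Psma6 and Psma5, subunits of the 20S core, rose in both, at 1.48 and 1.53 and at 1.02 and 1.16. Psmd11 and Psmc2, subunits of the 19S cap, rose in the knockout at 1.23 and 1.15, with 0.88 and 0.63 in wild type. The other Psmc2 probe gave 0.41 in the knockout and 0.51 in wild type. The lowest were Psmd8, with -0.15 and -0.57, Psma1, with -0.08 and 0.11, and Psmd2, with 0.26 and 0.03.

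The mean profile of the 10 genes over the 4 arrays was compared with 17132 other genes well above background on all arrays. The nearest, by Euclidean distance of centred log2 values, were AW552889, Abi1, Snf8, Cmklr1 and Chmp4b, at distances from 0.03 to 0.05. The 10 genes themselves lay at 0.06 (Hsph1) to 0.75 (Hspa1b) from their mean. Hsph1 was thus the member closest to the mean, and Hspa1b, with the largest responses, was the farthest.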

How the data were processed

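Total RNA from 4 cultures was labelled with Cy3 and read on 4 Agilent arrays of 1 slide, in 1 scan, with Feature Extraction 11.5.1.1, per the submitters' processing notes and the file headers. The deposited intensity values (processed signal) are background-corrected by that software, per the file headers. The authors' table holds the same intensity values scaled per array, and log2 ratios between arrays that the authors deposited. Here, log2 of the processed signal minus its 75th percentile was taken (Python 3.11.15, numpy 2.4.6, pandas 2.3.3), and 70 to 115 outlier spots per array were left out. A gene's brightest probe stands for it. A signal not well above background was raised to the array's dimmest signal well above background where it lay below that. Differences of at least 2-fold were counted, with 1.5-fold as an alternative. The procedure was tested on simulated data. The normexp alternative used limma 3.58.1 in R 4.3.3. The 10 genes, the lists and the rule for named genes (all 10 members, the 2 highest and 2 lowest genes of each list, Hsf1 and Bag3, 5 nearest profiles) were chosen with earlier results of these data known. Dnaja1, Psmc2, Bag4, Dnajb3 and the marker Hdc fall outside that rule and were named after their values were seen. Precision is limited by 1 array per group. Promoter letters came from RefSeq tables.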

Additional observations from a re-analysis of the deposited data

Results flagged for a closer look

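At the third Hsp90aa1 probe, the one designed to an expressed sequence tag, the R848 response was -0.48 in wild type and 1.84 in the knockout, opposite in sign, a difference of 2.32 on the log2 scale. The difference was not tested, since each response rests on 1 pair of arrays. The other probes of the gene, both designed to its RefSeq transcript, gave 1.26 and 1.41 in wild type and 1.19 at both in the knockout.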

How the results depend on the processing

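No paired analysis was possible because each group has 1 array, and no array could be left out for the same reason. All 10 genes kept a response above 0 in both genotypes under each of the 10 alternatives that change values. The wild-type median of 0.63 became 0.51 with quantile normalization and 0.79 with median centring. The knockout median of 0.73 became 0.62 and 0.87 under these, and 0.65 with the mean over all probes or over RefSeq-designed probes, a setting chosen after seeing the data. The count of 3 genes in wild type became 1 with the mean over probes (Hsp90aa1 at 0.73 and Hspd1 at 0.92), 2 with normexp, quantile normalization or the mean over RefSeq-designed probes, and 7 at 1.5-fold. The count of 2 in the knockout became 4 with median centring, with Hspd1 at 1.05 and Hspa1a at 1.04, and 6 at 1.5-fold. With R848, the genotype median of -0.01 changed sign, to 0.10 with the mean over probes and to 0.02 in the authors' table or with the mean over RefSeq-designed probes. At 1.5-fold, 1 gene differed between genotypes with R848 and 1 in the difference of responses. Hsp90aa1 changed sign between genotypes with R848, from -0.11 to 0.60, with the mean over probes. Median centring shifted the median of all genes by 0.15 in wild type and 0.14 in the knockout, and moved the share of higher genes among those at least 2-fold different from 46.9% to 61.0% and from 51.0% to 63.1%. In the genotype comparison with R848 that share was 48.9%, and 60.2% in the authors' table. It was 46.8% in the untreated comparison and 33.6% with normexp, which used the median signal, a column chosen after seeing the files.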

Other observations

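Of the genes in the chaperone and immediate early lists, Dnajb4, Dnajb13, Cryaa and Egr2 differed at least 2-fold between genotypes with or without R848. Dnajb4, a J-domain partner of HSP70, gave 1954 and 2048 in wild type without and with R848, and 1946 and 4492 in the knockout. Only the knockout array with R848 was high, as at Hspa1a, and its difference between genotypes with R848 was 1.21 at the brightest of 4 probes and 0.31 at the lowest. Cryaa, a small heat shock protein best known from the lens, gave 45.2 and 41.0 in wild type and 110 and 45.7 in the knockout, so that the untreated knockout array stood apart. Dnajb13, a J-domain protein of sperm, gave 85.0 and 30.4 in wild type and 38.6 and 15.3 in the knockout, the last not well above background. It was 2.08-fold lower in the untreated knockout. Egr2, an immediate early transcription factor, gave 3884 and 4338 in wild type and 7481 and 9389 in the knockout, higher in the knockout in both states. These genes were chosen after their values were seen, and none of the differences was tested.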
